A study of Rattus norvegicus with 60 samples.

Results

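The comparison set lungs of rats examined 8 weeks after they had inhaled crystalline silica against lungs examined 4 weeks after it. The rats were chosen by their titles, 8 in each group, and make up 16 of the 60 rats of the series. All were male rats of the strain labelled CDF Fisher 344, for which 1 age of approximately 3 months is given. Silica rats inhaled dust on 5 days, for 6 hours each day, at a concentration of 15 mg/m3, and separate animals were killed 4 and 8 weeks after the last exposure. Air rats, 4 at each of these times, breathed air in its place. No allele, drug or vector was involved, and each array held the lung RNA of 1 rat. The silica groups had the same exposure and differ in the weeks passed since it, and the air groups differ in the weeks alone too. The main silica changes are therefore given beside those between the same weeks in air rats.

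Crystalline silica is a mineral dust that lung macrophages engulf and cannot digest. The damaged cells release interleukin-1 and chemokines, which draw monocytes and neutrophils out of the blood, and the reaction goes on after exposure has ended. In silicosis the persisting reaction is followed by nodules and by scar tissue rich in collagen.

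Expression was measured on Illumina bead arrays. Levels are log2 of the normalized intensity of a gene's probe, so that 1 unit is a doubling, and they are not compared between genes. A gene was called where the adjusted p-value of limma, a linear model fitted over all genes, was under 0.05. Differences are log2 of 8 over 4 weeks ± standard error. Over the 24 arrays at these times, 11225 to 12507 genes were detected per array (median 12148.5), the median signal was 60.2 to 97.8, and no array's median correlation with the rest was below 0.987. The number of arrays limits the precision, with a median standard error of 0.071 for the silica change, 0.101 for the air change and 0.123 for the difference between them. The lung markers Sftpc and Sftpb (surfactant), Ager (type I cells), Scgb1a1 (club cells) and Cdh5 (endothelium) were detected on 24 of 24 arrays. Marco, a receptor of alveolar macrophages, was not well above background on any of them. In the order in which the arrays were deposited they form 8 runs, each with 1 silica rat of every week, and 4 runs also hold 1 air rat of every week. The labels do not call these runs batches. The 5 arrays of run 7, which hold 1 silica rat of each time, had the fewest genes detected, at most 11620 against at least 11702 elsewhere.

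Between 4 and 8 weeks the monocyte chemokines Ccl7 and Ccl2, the interleukin-1 decoy receptor Il1r2 and the neutrophil protein S100a8 rose in silica lungs, and 16 of 22 collagen and elastic fibre genes, elastin among them, and 8 of 13 endothelial markers fell. Of 13899 genes tested, 2826 (20.3%) were called in silica rats, 1442 higher (10.4%) and 1384 lower (9.96%) at 8 weeks. Every list count below is to be read against these 10.4% and 9.96%, and no list was tested as a set. Most changes were small, and 98 of the called genes changed by at least 1.5-fold, 60 higher and 38 lower. The 8 values at 8 weeks lay entirely above the 8 values at 4 weeks for 306 genes (2.2%) and entirely below for 301 genes (2.17%). In air, with 4 rats a group, the groups were apart in this way for 258 genes (1.86%) upward and 256 genes (1.84%) downward. Groups of 4 come apart by chance far more often than groups of 8, so these shares do not compare silica with air. With median scaling of the arrays in place of quantile normalization 1449 genes were called, and with run as a block 3984 genes (28.7%) were.

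In air rats 3 genes (0.0216%) were called between the same weeks, and all 3, Col1a1, Eln and Col3a1, encode extracellular matrix proteins and were lower at 8 weeks. With run as a block 26 genes (0.187%) were called in air, 6 higher and 20 lower. Air had 4 rats a group against 8 in silica, so the counts do not compare sizes. Restricted to the 4 runs that hold both kinds of rats, with 4 silica rats against 4, limma called 520 genes in silica, 225 higher and 295 lower, of which 499 were also called with all rats. In those runs 10 of 22 collagen and elastic fibre genes, 1 of 18 CC chemokines and receptors and none of 13 endothelial markers were called, against 16, 8 and 8 with all rats, and 62 of the 100 named genes called in silica lost their call. The genes called in air in the same fit were Col1a1, Col3a1 and Kl. In that fit the difference between the silica and the air change passed for no gene. Of the 1442 genes called higher in silica, 1190 (82.5%) also had a higher mean at 8 weeks in air, against 48.9% of all genes. Their median change was 0.24 in silica and 0.09 in air. Of the 1384 genes called lower in silica, 1205 (87.1%) also had a lower mean at 8 weeks in air, against 51.1% of all genes, with median changes of −0.26 and −0.10. These shares and medians are a description and were not tested. The genes were chosen by their silica change, which can enlarge their silica medians and not their air medians.

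The difference between the silica change and the air change was tested gene by gene in the same fit. No gene passed (smallest adjusted p = 0.101 by limma), while 994 genes had an unadjusted p under 0.05. With run as a block 5 genes passed (0.036%), all with the larger rise in silica: Il1r2, Ceacam4, Lpo, Ebp and LOC362677. For the other genes a call in silica and none in air is not shown to be a difference between them. Under other settings Ccl7 and Degs2 passed as well.

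**Figure D1:**
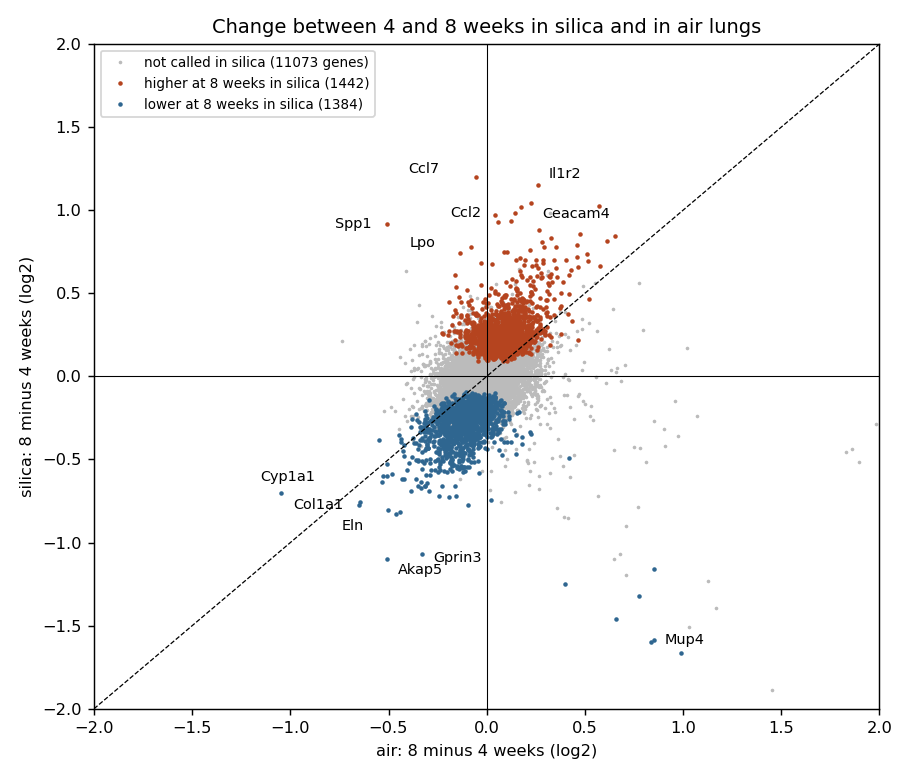
Change between 4 and 8 weeks (log2) in silica lungs (vertical axis) against that in air lungs (horizontal axis), 1 point per gene; red and blue points are the 1442 and 1384 genes called higher and lower in silica, the dashed line marks equal change, and 12 genes lie beyond the axes at 2. Ccl7, Ccl2 and Lpo rose in silica with air changes near 0, while Col1a1 and Eln lie near the dashed line.

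The monocyte chemoattractants Ccl7 and Ccl2 rose. Ccl7, which draws monocytes, ranged from 6.36 to 7.18 (median 6.80) at 4 weeks and from 7.28 to 8.93 (median 7.94) at 8 weeks in silica rats. In air rats its levels were 6.24, 6.16, 5.63 and 5.66 at 4 weeks and 6.37, 5.84, 5.52 and 5.75 at 8 weeks. All 8 silica rats at 8 weeks lay above all 8 at 4 weeks, while the air rats of both times overlapped each other and, at 6.37, just reached the lowest silica rat at 4 weeks. Ccl7 rose by 1.20 ± 0.16 (2.30-fold, adjusted p = 2.93e-07), the largest rise called, against −0.05 ± 0.23 in air, and the difference of 1.25 ± 0.28 did not pass (adjusted p = 0.111). It passed only with 1 rat left out. That rat was silica rat 2 at 8 weeks (1.36, adjusted p = 0.0208) or air rat 1 at 8 weeks (1.42, adjusted p = 0.0492). With run as a block the difference did not pass (adjusted p = 0.0556).

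Ccl2, the main monocyte chemoattractant, ranged from 8.47 to 9.30 (median 8.87) at 4 weeks and from 9.37 to 10.55 (median 9.82) at 8 weeks in silica. Air levels were 7.87, 7.48, 7.07 and 6.66 at 4 weeks and 8.25, 6.97, 6.57 and 7.88 at 8 weeks. The silica groups did not overlap, and the air groups did. Ccl2 rose by 0.98 ± 0.17 (adjusted p = 3.03e-05), against 0.15 ± 0.24 in air (adjusted p = 0.968), and did not pass in the 4 runs with air rats (0.85, adjusted p = 0.0638). Its excess over air at 4 weeks, 1.64, was 2.47 at 8 weeks. The difference between the silica and the air change, 0.84 ± 0.29, did not pass (adjusted p = 0.558, and 0.251 with run as a block). Silica means of Ccl7 at 1, 2 and 4 weeks were 6.88, 6.71 and 6.82, and those of Ccl2 were 8.95, 8.67 and 8.91, so the higher values at 8 weeks followed 3 times at a like level.

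Among the 18 measured CC chemokines and receptors of monocytes and lymphocytes, 7 rose and 1 fell (median 0.17 in silica and 0.09 in air, against 0.00 and 0.00 over all genes tested). Besides Ccl7 and Ccl2 the rises were Ccl3 (0.57 ± 0.11), Ccl17 (0.43 ± 0.10), Ccl4 (0.33 ± 0.08) and Ccl6 (0.28 ± 0.06), ligands for monocytes, macrophages and T cells, and Ccl4 changed by 0.44 in air, where it was called only with run as a block. Ccl21, which guides the same cells as Ccr7, changed by 0.21 ± 0.08, and Ccr7, the receptor that guides dendritic cells and T cells to lymph nodes, fell by 0.35 (adjusted p = 0.00059). The receptors Ccr2 (−0.23) and Ccr1 (−0.00) did not pass. Of the 7 measured neutrophil chemokines and receptors 2 rose, Cxcl2 (0.64 ± 0.16, with 0.43 ± 0.22 in air) and the receptor Cxcr2 (0.41 ± 0.11, with 0.18 ± 0.15). Cxcl6 did not pass (0.42 ± 0.19, adjusted p = 0.114), and its silica values at 8 weeks, 8.28 to 9.07, overlapped those at 4 weeks, 7.97 to 8.98.

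The promoter of Ccl7 and, for contrast in direction, those of the collagen genes Col4a1 and Col1a2 are printed from RefSeq, assembly GRCr8, as 250 bases before and 50 bases after the start of each gene, 5′ to 3′ on the gene's strand. Of the 117 genes named by rule, 80 had such an entry. Capitals mark TATAAA, the core of the TATA box, and CCAAT, both searched on either strand (TTTATA and ATTGG), and the 2 motifs do not overlap in them. Over the 33469 windows of that length in the table, 14.2% held TATAAA and 37.5% held CCAAT.
Ccl7, chr10:67513845-67514144, plus strand: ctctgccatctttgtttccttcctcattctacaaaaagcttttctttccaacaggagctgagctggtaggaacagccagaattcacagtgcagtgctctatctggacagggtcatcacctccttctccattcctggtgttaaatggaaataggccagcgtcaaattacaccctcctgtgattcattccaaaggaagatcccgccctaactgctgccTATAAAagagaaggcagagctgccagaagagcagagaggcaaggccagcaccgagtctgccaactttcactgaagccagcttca
Col4a1, chr16:84885347-84885646, plus strand: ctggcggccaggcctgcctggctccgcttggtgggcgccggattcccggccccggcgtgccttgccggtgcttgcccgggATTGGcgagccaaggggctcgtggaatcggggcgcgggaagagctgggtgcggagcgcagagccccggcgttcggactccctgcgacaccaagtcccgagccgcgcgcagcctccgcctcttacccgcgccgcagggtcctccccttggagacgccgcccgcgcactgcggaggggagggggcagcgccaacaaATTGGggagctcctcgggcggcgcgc
Col1a2, chr4:33518307-33518606, plus strand: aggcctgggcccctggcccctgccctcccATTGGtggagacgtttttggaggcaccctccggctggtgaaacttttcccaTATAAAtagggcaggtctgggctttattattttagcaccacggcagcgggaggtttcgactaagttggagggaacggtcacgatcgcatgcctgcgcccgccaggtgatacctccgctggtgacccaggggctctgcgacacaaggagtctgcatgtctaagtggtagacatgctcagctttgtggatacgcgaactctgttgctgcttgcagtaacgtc
In the Ccl7 window TATAAA starts 34 bases before the start of the gene. The Col4a1 window holds CCAAT at 2 places, both as its reverse complement, and no TATAAA. Col4a1 and Col4a2, the paired chains of basement membrane collagen, lie head to head, and the windows of the pair share 176 bases on opposite strands. Both fell in silica, Col4a1 by 0.34 and Col4a2 by 0.60. The Col1a2 window holds 1 of each motif. These matches describe the letters of the windows, and binding was not measured.

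**Figure D2:**
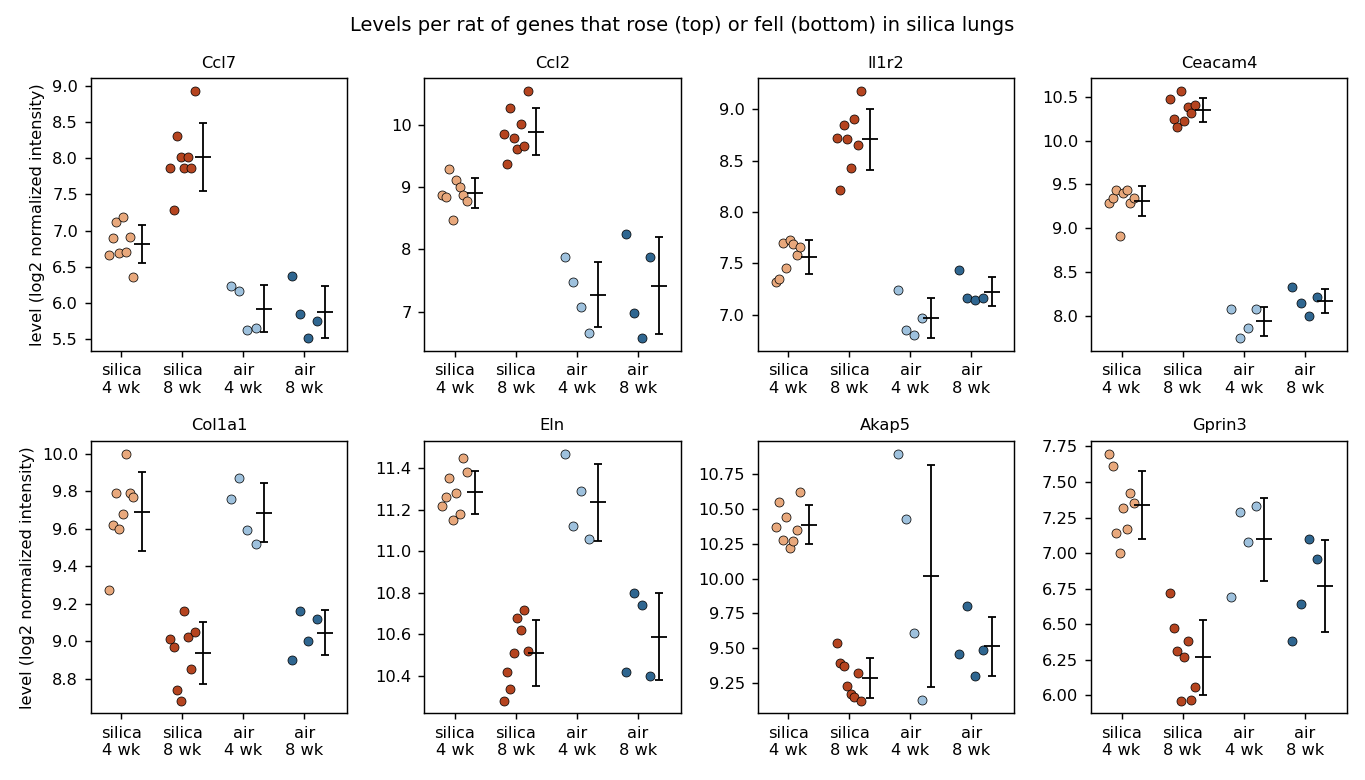
Level per rat (log2 normalized intensity) of 4 genes that rose and 4 that fell, in silica and air rats at 4 and 8 weeks; each point is 1 rat and the bars show mean ± SD (n = 8 silica, n = 4 air). For all 8 genes the silica groups do not overlap, and for Col1a1 and Eln the air groups do not overlap either.

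Interleukin-1 genes moved unevenly. Il1r2, a decoy receptor that binds interleukin-1 without signalling and is carried by neutrophils and macrophages, ranged from 7.32 to 7.73 (median 7.62) at 4 weeks and from 8.21 to 9.18 (median 8.72) at 8 weeks in silica rats. In air rats it was 7.24, 6.85, 6.80 and 6.97 at 4 weeks and 7.43, 7.16, 7.14 and 7.16 at 8 weeks. The silica groups did not overlap, and every silica rat at 8 weeks lay above every air rat. Il1r2 rose by 1.15 ± 0.10 (adjusted p = 9.97e-12), an adjusted p shared with Itga1 as the smallest of the comparison, against 0.26 ± 0.15 in air. The difference of 0.89 ± 0.18 had an adjusted p of 0.101, and of 0.0345 with run as a block. Of the 11 measured genes of the inflammasome and interleukin-1 family, 2 rose, Il1r2 and the cytokine Il1b (0.29 ± 0.09), and 1 was called lower (median 0.05 in silica and −0.01 in air). That gene, Il33, was not detected by its deposited p-value in any of the 16 silica rats, so no fold is given. Its mean level in silica was nevertheless 11.12 at 4 weeks and 10.92 at 8 weeks. The deposited p-value and the intensity of Il33 therefore disagree, and its absence is not shown. The receptor Il1r1 (0.01), the sensor Nlrp3 (0.05) and the antagonist Il1rn (0.05) did not pass.

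Ceacam4, a member of the carcinoembryonic antigen family of cell surface proteins, ranged from 8.91 to 9.44 (median 9.35) at 4 weeks and from 10.16 to 10.57 (median 10.35) at 8 weeks in silica. Air rats had 8.07, 7.74, 7.86 and 8.07 at 4 weeks and 8.33, 8.14, 7.99 and 8.21 at 8 weeks. Silica rats at 8 weeks lay above those at 4 weeks, and these above all air rats, without overlap. Ceacam4 rose by 1.04 ± 0.10 (adjusted p = 1.24e-10) against 0.23 ± 0.14 in air, a difference of 0.81 ± 0.18 (adjusted p = 0.11, and 0.0345 with run as a block).

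Lpo, lactoperoxidase, which makes an antimicrobial oxidant in airway fluid, ranged from 4.94 to 5.54 (median 5.22) at 4 weeks and from 5.62 to 6.54 (median 5.95) at 8 weeks in silica. It was detected in 6 of the 8 rats at 4 weeks and in all 8 at 8 weeks. In air it was 5.00, 4.92, 5.41 and 5.08 at 4 weeks and 5.12, 4.99, 5.08 and 4.89 at 8 weeks, so that air and silica rats overlapped at 4 weeks and not at 8. It rose by 0.78 ± 0.12 (adjusted p = 3.71e-06), against −0.08 ± 0.17 in air. The difference of 0.86 ± 0.21 had an adjusted p of 0.233, and of 0.0355 with run as a block. The rise was 0.46 with no background correction and 0.26 in the authors' values. The excess of silica over air was 0.12 at 4 weeks (adjusted p = 0.699) and 0.98 at 8 weeks (adjusted p = 1.48e-06).

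Ebp, a sterol isomerase of cholesterol synthesis, ranged from 9.39 to 9.58 (median 9.49) at 4 weeks and from 9.77 to 9.96 (median 9.87) at 8 weeks in silica. The air values were 9.63, 9.53, 9.82 and 9.77, then 9.70, 9.74, 9.76 and 9.65. The silica groups did not overlap, and the air rats, from 9.53 to 9.82, reached into both. It rose by 0.37 ± 0.04, against 0.02 ± 0.06 in air, and the difference of 0.35 ± 0.07 had an adjusted p of 0.11, and of 0.0355 with run as a block. The fifth gene whose changes differed with run as a block, LOC362677, which has no name in the table used, was chosen after its values were seen (0.38 ± 0.07 in silica and −0.15 ± 0.10 in air). Degs2, a desaturase that makes sphingolipids, ranged from 5.95 to 6.70 (median 6.25) at 4 weeks and from 6.47 to 7.53 (median 7.28) at 8 weeks, with an overlap between the groups. It rose by 0.94 ± 0.11 (adjusted p = 4.17e-08) against 0.12 ± 0.16 in air, and by 0.50 in the authors' values. The difference of 0.81 ± 0.20 did not pass (adjusted p = 0.233, and 0.0955 with run as a block). It passed only without silica rat 2 at 8 weeks (adjusted p = 0.0208) and in the authors' values (adjusted p = 0.0473).

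**Figure D3:**
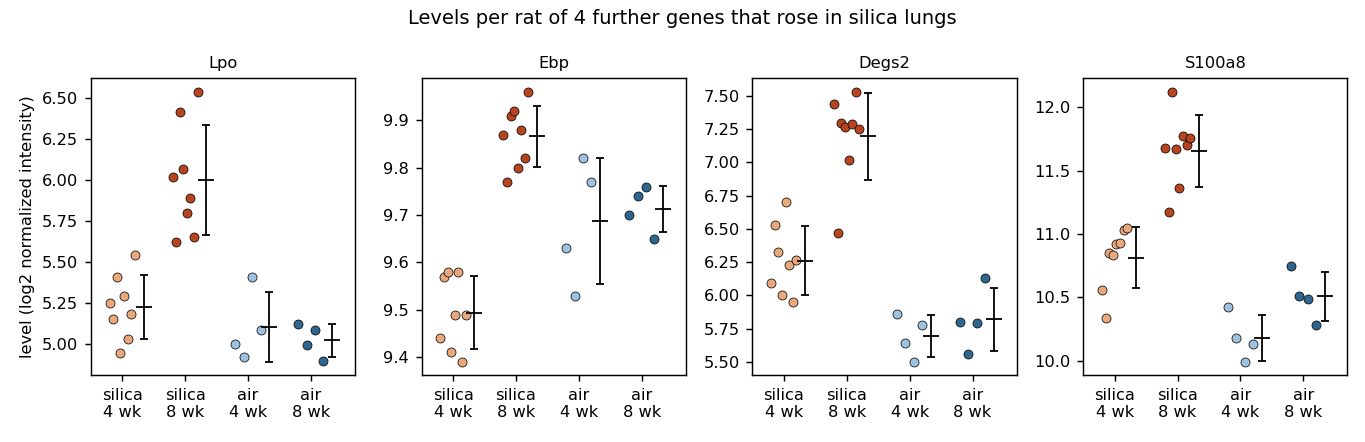
Level per rat (log2 normalized intensity) of Lpo, Ebp, Degs2 and S100a8 in silica and air rats at 4 and 8 weeks; each point is 1 rat and the bars show mean ± SD (n = 8 silica, n = 4 air). The silica groups overlap for Degs2 and do not for the others.

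Of 10 measured neutrophil markers 4 were called higher at 8 weeks, against 10.4% of all genes, and none lower (median 0.30 in silica and 0.08 in air). S100a8, a calcium-binding protein abundant in neutrophils, ranged from 10.34 to 11.05 (median 10.89) at 4 weeks and from 11.17 to 12.12 (median 11.69) at 8 weeks in silica, without overlap. In air it was 10.42, 10.18, 9.99 and 10.13, then 10.75, 10.51, 10.49 and 10.28. It rose by 0.83 ± 0.11 (adjusted p = 5.09e-07) against 0.33 ± 0.16 in air (adjusted p = 0.743). Its partner S100a9 was not well above background in any silica rat at 4 weeks and was detected in 4 of 8 at 8 weeks, at least 1.3-fold higher. Camp, an antimicrobial peptide of neutrophil granules, rose by 0.42 ± 0.09 (0.25 ± 0.13 in air), and Cd177, a neutrophil surface protein, did not pass (0.37 ± 0.19, adjusted p = 0.168). In bulk lung RNA, more cells of a type and more RNA per cell cannot be told apart.

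Of 12 measured macrophage markers 4 rose and none fell (median 0.23 in silica and 0.04 in air). They were Aif1 (0.43 ± 0.05, adjusted p = 5.31e-08), Chi3l1 (0.33 ± 0.10, with 0.26 in air), the lysosomal protein Cd68 (0.27 ± 0.10) and the endotoxin co-receptor Cd14 (0.23 ± 0.07). Aif1, a cytoskeletal protein of macrophages, was between 11.25 and 11.56 in silica at 4 weeks and between 11.70 and 12.07 at 8 weeks, and the 8 air rats of both times lay between 11.27 and 11.62. The general markers Mrc1 (0.07), Cd163 (0.09) and Lgals3 (0.14) did not pass. Without silica rat 8 at 8 weeks Cd14 no longer passed (adjusted p = 0.0735).

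Osteoclast-type genes, which macrophages use to digest matrix and mineral, had 3 of 5 measured members higher and none lower (median 0.35 in silica and −0.03 in air). Ctsk, the collagen-cleaving cathepsin K, ranged from 9.88 to 10.66 (median 10.35) at 4 weeks and from 10.74 to 11.55 (median 10.86) at 8 weeks in silica, without overlap. In air it was 10.13, 10.15, 9.73 and 9.44, then 10.96, 9.52, 9.15 and 10.52, so that 1 air rat at 8 weeks lay above every silica rat at 4 weeks. It rose by 0.63 ± 0.18 (adjusted p = 0.00682). Atp6v0d2, a proton pump subunit, rose by 0.46 ± 0.16, and the gelatinase Mmp9 by 0.35 ± 0.07. Among 11 genes of scar-associated macrophages 4 rose and 1 fell (median 0.15 in silica and −0.07 in air). Spp1, osteopontin, ranged from 7.35 to 7.96 (median 7.56) at 4 weeks and from 7.67 to 10.08 (median 8.26) at 8 weeks, with overlap, and changed by 0.91 ± 0.30 (adjusted p = 0.0219) against −0.51 ± 0.42 in air. Without silica rat 8 at 8 weeks it did not pass (adjusted p = 0.0929). Trem2 rose by 0.36 (0.12 in air), Mmp12, the macrophage elastase, did not pass (0.19 ± 0.25), and Timp2, an inhibitor of matrix proteases, fell by 0.52 (adjusted p = 1.98e-06, with −0.18 in air).

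Of 10 alternative activation genes 4 rose and none fell (median 0.16 in silica and 0.09 in air). Arg1, arginase, rose by 0.53 ± 0.10 (adjusted p = 5.84e-05, with 0.15 in air), from 9.31 to 9.84 at 4 weeks to 9.87 to 10.44 at 8 weeks, without overlap. The lectin Clec10a rose by 0.36 ± 0.06 (0.11 in air), and Ccl17 is a member here too. Retnla, a secreted protein of alternatively activated macrophages, changed by 0.55 ± 0.20 (adjusted p = 0.0458) with overlapping groups, and lost its call in 17 of the 45 alternatives tried. The 22 lysosome and proton pump genes had 4 higher and 1 lower (median 0.07). Among 11 scavenger and phagocytic receptors, the antibody receptors Fcgr2b and Fcgr1a rose by 0.44 and 0.29, and Axl, which binds dying cells, fell by 0.37.

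Interferon-induced genes were split. Of 17 measured, 5 rose and 1 fell (median 0.09 in silica and −0.00 in air). Cxcl9, a chemokine for activated T cells, ranged from 9.49 to 9.96 (median 9.83) at 4 weeks and from 10.35 to 10.87 (median 10.44) at 8 weeks in silica, without overlap, and was 9.40, 9.32, 9.43 and 9.38, then 10.04, 9.71, 9.38 and 10.02 in air. It rose by 0.70 ± 0.09 (adjusted p = 3.19e-07) against 0.40 ± 0.13 in air (adjusted p = 0.401). Cxcl11, of the same family, ranged from 5.32 to 5.88 at 4 weeks and from 5.74 to 8.16 at 8 weeks, with overlap. Its change of 0.93 ± 0.26 (adjusted p = 0.00777) was 0.41 in the authors' values and did not pass there (adjusted p = 0.0991). Ifit3, an antiviral protein, rose by 0.60 ± 0.13, and Oas1a and Oasl by 0.32 and 0.31. Cxcl10 did not pass (0.25 ± 0.27). In the 4 runs with air rats the median of the list was −0.08, with 1 member higher and 1 lower.

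Complement genes had 7 of 18 measured members higher and 1 lower (median 0.16 in silica and −0.01 in air). C1qa, a chain of the recognition protein of the classical pathway, rose by 0.25 ± 0.07 (−0.07 in air), and the terminal components C6 by 0.29 ± 0.09 (0.01 in air) and C5 by 0.26 ± 0.07 (0.23 in air). The terminal component C7 fell by 0.39 (−0.20 in air). C1qb (0.02) and C1qc (0.16), the partner chains of C1qa, did not pass, and C1qa itself did not without silica rat 8 at 8 weeks (adjusted p = 0.051). With median scaling 2 members were called higher and none lower.

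Of 13 genes of pendrin, lactoperoxidase and the oxidases, 6 rose and 1 fell (median 0.18 in silica and 0.06 in air). Lpo, described above, was one of them. Ncf4 and Cyba, subunits of the phagocyte NADPH oxidase, rose by 0.21 and 0.18, and Cybb, its catalytic subunit, fell by 0.33 (adjusted p = 0.0409). Slc26a4, pendrin, an anion exchanger of airway epithelium, changed by 0.70 ± 0.25 (adjusted p = 0.0383) and Noxo1, an oxidase organizer, by 0.42 ± 0.15 (adjusted p = 0.0341), both with overlapping groups and calls lost in 12 and 15 of the 45 alternatives. The dual oxidases Duox1 (0.15) and Duox2 (0.04) did not pass.

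Of the lymphocyte lists few members were called, with 1 of 15 T cell markers lower and none higher, 1 of 11 B and plasma cell markers higher and 1 of 11 NK and cytotoxic markers higher. The plasma cell gene Mzb1 rose by 0.57 ± 0.16 (adjusted p = 0.00735), with 0.39 ± 0.23 in air. Among the 15 largest rises was Igkvl16, a kappa light chain variable segment, which ranged from 7.57 to 8.83 at 4 weeks and from 8.83 to 9.68 at 8 weeks in silica and changed by 1.02 ± 0.17 (adjusted p = 1.31e-05), against 0.57 ± 0.24 in air. LOC502819 (1.02 ± 0.23), LOC502797 (0.97 ± 0.28), LOC500183 (0.86 ± 0.20) and LOC500192 (0.81 ± 0.27) and the pseudogene LOC500162 (0.88 ± 0.27) were among the same 15, with overlapping groups, and the table used here gives them no other name. Of 11 genes of MHC class I antigen processing 3 rose and 1 fell, with the immunoproteasome subunit Psmb10 higher by 0.31 ± 0.04 (adjusted p = 9.26e-07, with 0.07 in air).

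**Figure D4:**
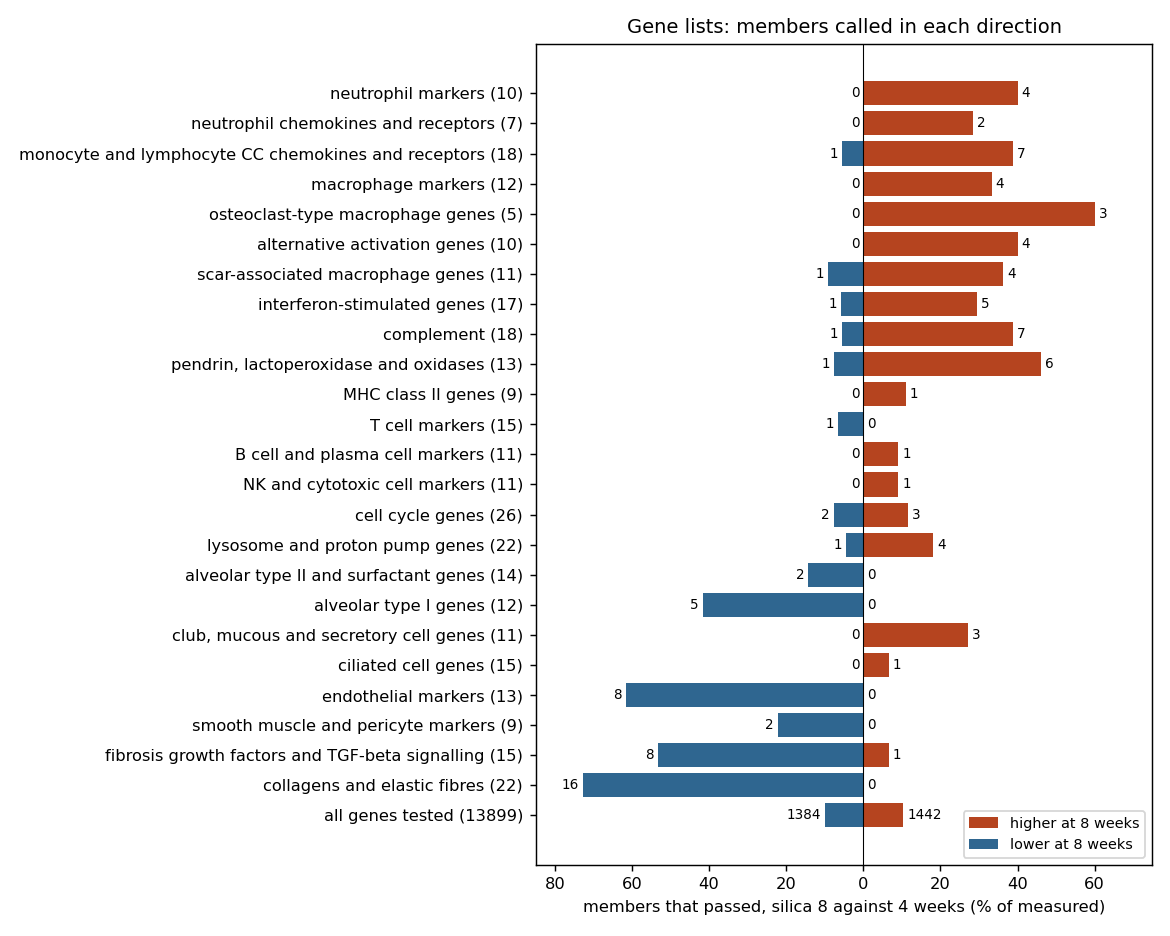
Share of the measured members of each gene list (number in brackets) that were called higher (right, red) or lower (left, blue) at 8 than at 4 weeks in silica lungs, in percent, with the count at the end of each bar. Collagen and endothelial lists have 16 of 22 and 8 of 13 members lower, against 9.96% of all genes tested.

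Of 22 measured collagens and elastic fibre genes 16 fell and none rose in silica, and 3 fell and none rose in air (median −0.34 in silica and −0.24 in air). With run as a block 9 of them were lower in air too, and with median scaling 8 were lower in silica. Col1a1, the main chain of fibrillar collagen, ranged from 9.27 to 10.00 (median 9.73) at 4 weeks and from 8.68 to 9.16 (median 8.99) at 8 weeks in silica rats. In air rats it was 9.76, 9.87, 9.59 and 9.52 at 4 weeks and 8.90, 9.16, 9.00 and 9.12 at 8 weeks. Neither the silica nor the air groups overlapped, and silica and air rats of 1 time did. Col1a1 fell by 0.76 in silica (SE 0.08, adjusted p = 3.95e-09) and by 0.64 in air (SE 0.12, adjusted p = 0.0129), a difference of −0.11 ± 0.14 (adjusted p = 0.907).

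Eln, elastin, ranged from 11.15 to 11.45 (median 11.27) at 4 weeks and from 10.28 to 10.72 (median 10.51) at 8 weeks in silica, and in air it was 11.47, 11.12, 11.29 and 11.06, then 10.42, 10.80, 10.74 and 10.40. Again neither pair of groups overlapped. Eln fell by 0.77 in silica (SE 0.09, adjusted p = 6.73e-09) and by 0.65 in air (SE 0.12, adjusted p = 0.0171). Col3a1, the second fibrillar collagen, fell by 0.37 in silica (adjusted p = 2.37e-05) and by 0.44 in air (adjusted p = 0.0447), and its silica call was lost with median scaling. The air calls were lost in 23 of 44 alternatives for Col3a1, 8 for Eln and 7 for Col1a1. In the 4 runs with air rats, which are not among these 44, Eln lost its air call as well. At 4 and 8 weeks Col1a1 differed between silica and air by 0.01 and −0.11 (adjusted p = 0.985 and 0.627), and Eln by 0.05 and −0.08 (adjusted p = 0.864 and 0.767). Over all 5 times of the series, from 1 to 16 weeks, silica means of Col1a1 were 9.75, 9.91, 9.69, 8.94 and 8.53, and air means were 9.84, 9.76, 9.69, 9.04 and 8.66.

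The other matrix genes that fell include Col4a2 (−0.60 ± 0.08 in silica and −0.51 ± 0.12 in air) and Fbn1, fibrillin of the microfibrils (−0.52 ± 0.07 and −0.40 ± 0.10), both lower in air with run as a block. Col1a2 (−0.41 ± 0.05 and −0.31 ± 0.07) and Col4a1 (−0.34 ± 0.05 and −0.20 ± 0.07) followed. The small proteoglycans Dcn and Lum fell by 0.39 each in silica, with air changes of 0.13 and −0.11. Fn1, fibronectin (−0.04), and the crosslinking enzymes Lox (−0.15) and Loxl1 (−0.10) did not pass, and Loxl1 changed by −0.37 in air. Outside the naming rule, and chosen after their values were seen, Itga1, an integrin chain that binds collagen, fell by 0.82 (adjusted p = 9.97e-12), with −0.44 ± 0.10 in air, and Nid1, nidogen of the basement membrane, fell by 0.80 (adjusted p = 6.73e-09), with −0.50 ± 0.13.

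**Figure D5:**
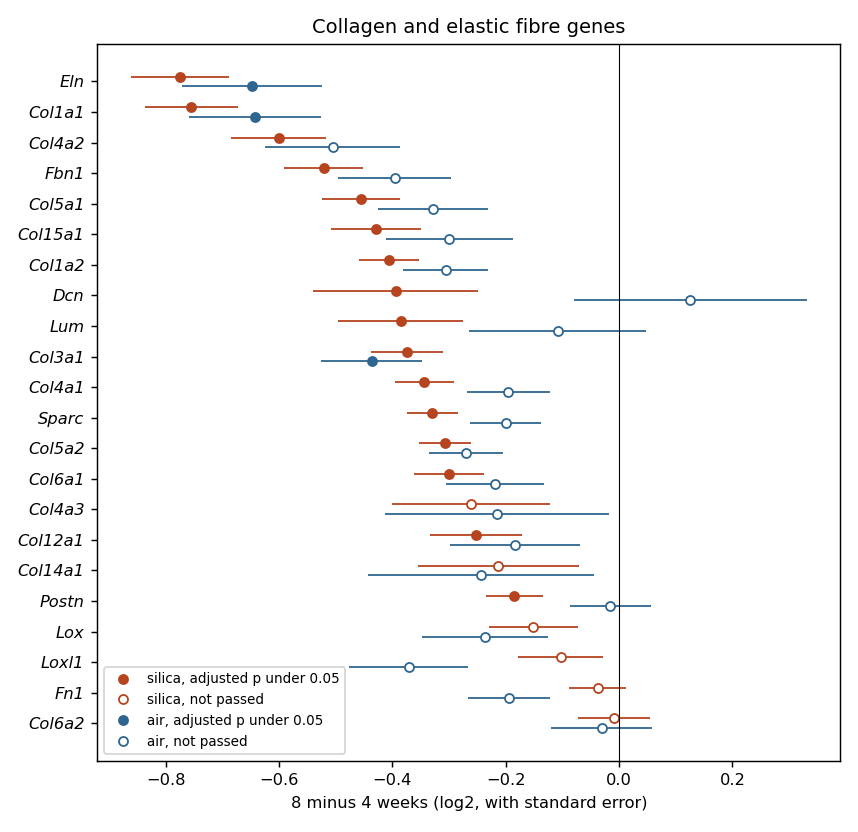
Change between 4 and 8 weeks (log2, with standard error) of the 22 measured collagen and elastic fibre genes in silica lungs (red) and air lungs (blue); filled circles passed the test at an adjusted p under 0.05. Filled red circles number 16 and filled blue circles 3.

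Of 15 fibrosis growth factor and TGF-beta genes, 8 fell and 1 rose (median −0.16 in silica and −0.02 in air), and 2 fell with median scaling. Fst, follistatin, a binding protein that blocks activin, ranged from 7.30 to 7.62 at 4 weeks and from 6.52 to 7.19 at 8 weeks in silica, without overlap, and fell by 0.62 (adjusted p = 2.82e-05), with −0.42 ± 0.15 in air. The ligand Tgfb1 fell by 0.23 and Bmp6, a bone morphogenetic protein, by 0.28, against −0.36 and −0.14 in air. Ccn2, connective tissue growth factor (−0.00), did not pass.

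Endothelial markers had 8 of 13 measured members lower and none higher (median −0.19 in silica and −0.08 in air), and 2 lower with median scaling. Calcrl, the receptor of adrenomedullin, ranged from 7.56 to 7.88 (median 7.67) at 4 weeks and from 6.89 to 7.30 (median 6.99) at 8 weeks in silica, without overlap, and in air was 7.46, 7.63, 6.96 and 6.97, then 7.37, 7.41, 6.62 and 6.98. It fell by 0.66 (adjusted p = 0.000112), against −0.16 ± 0.18 in air. The adhesion molecule Cdh5 fell by 0.35, the angiopoietin receptor Tek by 0.33, the endothelin receptor Ednrb by 0.27 and Ramp2, the partner of Calcrl, by 0.25. Vwf (−0.09), Emcn (−0.05) and Flt1 (0.03) did not pass. Of 9 smooth muscle and pericyte markers 2 fell, Myh11 by 0.50 and Des by 0.47.

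Of 12 alveolar type I genes 5 fell and none rose (median −0.12 in silica and 0.03 in air), and 2 fell with median scaling, where the median was −0.00. Akap5, a scaffold for protein kinase A, ranged from 10.22 to 10.62 (median 10.36) at 4 weeks and from 9.12 to 9.54 (median 9.28) at 8 weeks in silica. Air rats spread wider, at 10.90, 10.43, 9.61 and 9.13 at 4 weeks and 9.46, 9.80, 9.30 and 9.49 at 8 weeks. Akap5 fell by 1.10 (SE 0.17, adjusted p = 3.56e-06), against −0.51 ± 0.24 in air. The caveolar genes Cav1 and Cav2 fell by 0.58 and 0.46, with −0.04 and −0.13 in air. The defining type I genes Ager (−0.04), Aqp5 (−0.12), Hopx (0.01) and Pdpn (0.06) did not pass.

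Other falls of the largest size were Gprin3 and Pard6g. Gprin3 ranged from 7.00 to 7.70 (median 7.33) at 4 weeks and from 5.96 to 6.72 (median 6.29) at 8 weeks in silica, and was 6.69, 7.29, 7.08 and 7.33, then 6.38, 6.64, 7.10 and 6.96 in air. It fell by 1.07 (SE 0.14, adjusted p = 1.8e-07), and by 0.58 in the authors' values. Pard6g, a cell polarity protein, fell by 0.83 (SE 0.10, adjusted p = 6.17e-08), against −0.46 ± 0.14 in air. Kit, the stem cell factor receptor, ranged from 8.31 to 8.68 at 4 weeks and from 7.76 to 8.12 at 8 weeks, fell by 0.55 (adjusted p = 0.000143), and was −0.12 ± 0.15 in air.

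Of 14 type II genes 2 fell, the transcription factors Nkx2-1 (−0.49 ± 0.11, with −0.25 in air) and Cebpa (−0.38 ± 0.10, with −0.30 in air), and none rose, while Sftpc (0.04 ± 0.06, adjusted p = 0.705) did not pass. The list median was −0.02 in silica and −0.01 in air, and 0.10 in silica with median scaling. Of 11 club and secretory genes none fell and 3 rose (list median −0.08 in silica and 0.27 in air), Slc26a4, Lcn2, which binds bacterial iron carriers (0.66 ± 0.17, with 0.46 ± 0.23 in air), and Cldn10, a junction protein (0.50 ± 0.08, with 0.38 ± 0.12 in air). Scgb1a1 (−0.01) did not pass. Of 19 antioxidant genes 3 rose, among them metallothionein Mt1 (0.37 ± 0.07, with 0.34 ± 0.10 in air), and 3 fell, among them the plasma peroxidase Gpx3 (−0.35 ± 0.05, with −0.10 ± 0.07). Xenobiotic enzymes had 2 of 19 higher and 3 lower, against 10.4% and 9.96% of all genes. Cyp1a1 fell by 0.70 in silica (adjusted p = 0.00226) and by 1.05 in air (adjusted p = 0.113, and 0.0368 with run as a block).

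Genes that respond to glucocorticoids or belong to the clock were read for time of day, which the labels do not give. Per1, a clock gene that glucocorticoids induce, changed by 0.84 ± 0.23 in silica (adjusted p = 0.00633) and by 0.65 ± 0.33 in air (adjusted p = 0.76), and Fkbp5, a chaperone partner of the glucocorticoid receptor, by 0.60 ± 0.14 and 0.36 ± 0.20. Of 8 glucocorticoid-responsive genes 3 rose and 1 fell (median 0.40 in silica and 0.34 in air), and the one that fell was the kinase Sgk1 (−0.21 ± 0.04, adjusted p = 0.000106, with −0.18 ± 0.06 in air). Of 14 clock genes 1 rose and 1 fell, and Nr1d1 (−0.30 ± 0.29) and Bmal1 (−0.09 ± 0.07) did not pass. With the levels of Nr1d1 and Bmal1 as covariates 5 of the named genes lost their silica call. Of 26 cell cycle genes 3 rose and 2 fell (median 0.02 in silica and −0.09 in air). For the cell cycle and clock lists these shares lay near those of all genes, 10.4% higher and 9.96% lower.

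The 7 genes with the largest falls were LOC259246, LOC682605, Mup4, Mup4l4, Serpina3c, Mug1l1 and Apoh, from −1.66 to −1.16, of which the named ones encode proteins that liver cells secrete. Mup4, a major urinary protein, ranged from 5.28 to 10.33 (median 7.87) at 4 weeks and from 5.28 to 9.79 (median 6.11) at 8 weeks in silica, so the groups overlapped over nearly their whole range. In air it was 7.28, 5.96, 6.80 and 4.67, then 7.06, 6.23, 7.49 and 7.33. Its change of −1.59 ± 0.54 (adjusted p = 0.0294) was positive in 2 of 8 runs, and its call was lost in 11 of the 45 alternatives. The calls of the others were lost in 8 (Mup4l4) to 33 (Apoh) alternatives, with 19 for LOC259246 and 20 for Mug1l1. The mean level of the 9 hepatocyte markers ranged from 6.94 to 9.28 at 4 weeks and from 7.25 to 9.32 at 8 weeks in silica, and from 6.86 to 7.65 and from 7.38 to 7.98 in air. With that mean as a covariate the Mup4 change was −0.61 (adjusted p = 0.00198). Of the 9 hepatocyte markers none was called lower and 2 were called higher, Tf, transferrin (0.26 ± 0.07, adjusted p = 0.00683), and Fgg, a fibrinogen chain (0.24 ± 0.07, adjusted p = 0.00889), while Alb, albumin, did not pass (−1.39 ± 0.59, adjusted p = 0.0857).

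Heart muscle markers varied as widely, with a mean over 12 genes from 5.33 to 9.20 at 4 weeks and from 5.52 to 8.08 at 8 weeks in silica, and from 5.39 to 5.72 and from 6.16 to 8.68 in air. None of the 12 was called in any of the 3 comparisons, and the list median was −0.07 in silica and 2.08 in air. With that mean as a covariate 1 named gene lost its silica call. In air, where these markers differed more, Col1a1 was −0.81 (adjusted p = 3.87e-05) with the covariate, Eln and Col3a1 lost their calls, and Kl (0.55) and Sag (0.60), outside the 3 air calls, passed.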

How the data were processed

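Lung RNA of 60 rats was measured on Illumina bead arrays, and the deposited table gives 1 intensity and 1 detection p-value per gene and array, both not normalized per the file headers. Per the submitters' processing notes the tools were BeadStudio, lumi and limma, whose versions are not given in the sources used here. The authors' processed values, on a log2 scale, served as an alternative, with the steps behind them not stated. In the deposited intensity column of silica rat 3 at 4 weeks the values were displaced by 2 lines from gene line 17 on and were moved back (correlation with the median array 0.232 before and 0.998 after). Of 21792 gene lines, 16866 were named through the gene identifier and 4524 kept the name in the file. The 120 other per-sample columns were not used.

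Background was corrected with normexp from the detection p-values (neqc in limma 3.58.1, R 4.3.3, offset 16), followed by quantile normalization. Genes needed a detection p-value under 0.05 on 4 or more arrays and were kept with the brightest line of a symbol, leaving 13899. A model with 10 groups was fitted to all 60 arrays, with 50 residual degrees of freedom and Benjamini-Hochberg adjustment over all genes, and was tested on simulated data. The replicate numbers did not pair the silica rats (correlations of deviations from −0.171 to 0.174). Over all 60 rats those of 1 run deviated together on average (mean correlation 0.196, against −0.046 between runs). The mean between runs includes all pairs within a group, whose deviations from the group mean oppose each other by construction. For silica rats at 8 and 4 weeks of the same run the correlations ranged from −0.139 to 0.302. Run as a block, the 4 runs alone, leaving out run 7, and the liver, heart and clock covariates were alternatives chosen after seeing the data.

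Groups come from the sample titles, where every number within a group stands for another animal. The comparison, the 46 gene lists and the 20 preset genes (19 measured) were chosen with earlier results of these data known. The rule named the 15 largest rises and 10 largest falls in silica, the 5 and 5 largest in air and in the difference, the 2 members with the smallest adjusted p of each list, and the preset genes, 117 in all. Other list members were named after their values were seen. Some members counted in the lists are not reported here by name.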

Additional observations from a re-analysis of the deposited data

Results flagged for a closer look

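In single groups 1 rat stood far from the others for 30 of 460 gene and group pairs (6.52%), where chance gives about 1 in 20. The pairs are not independent, and 7 of the flags are high values of 1 rat, so the shares do not compare directly. Silica rat 1 at 8 weeks was highest of its group for the genes with the largest falls, LOC259246 (10.81), LOC682605 (10.45), Mup4 (9.79), Mup4l4 (8.89), Serpina3c (8.65), Mug1l1 (8.55) and Apoh (8.56). It was lowest for RT1-DOa, an MHC class II chain (6.15). Its mean over the 9 hepatocyte markers, 9.32, was also the highest of its group. Silica rat 8 at 8 weeks was highest for Cxcl11 (8.16), Ctsk (11.55) and C1qa (10.11) and lowest for Il33 (10.66). Other silica rats at 8 weeks stood apart for LOC500183 (rat 6, 12.27), Tlr2 (rat 3, 9.24), Cd177 (rat 2, lowest, 11.46) and Dlk1 (rat 5, 5.14).

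Silica rats at 4 weeks stood apart for Ceacam4 (rat 4, lowest, 8.91), Mmp9 (rat 2, lowest, 5.91), Gzma (rat 4, 10.52) and Gstt1 (rat 2, 8.11). Air rats at 4 weeks did so for LOC502819 (rat 1, 7.34), Pou6f1 (rat 4, 5.13), Timp2 (rat 4, lowest, 9.99), Azin1 (rat 3, 9.77) and Lamp2 (rat 1, 11.74). Air rats at 8 weeks did so for Il1r2 (rat 1, 7.43), Mzb1 (rat 3, lowest, 5.97), Klf2 (rat 2, 11.5), Fkbp5 (rat 3, 9.82) and Sdf2l1 (rat 2, lowest, 6.67).

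With run as a block, limma's test of the difference between the silica and the air change passed for Il1r2 (0.89, adjusted p = 0.0345), Ceacam4 (0.81, adjusted p = 0.0345), Lpo (0.86, adjusted p = 0.0355), Ebp (0.35, adjusted p = 0.0355) and LOC362677 (0.53, adjusted p = 0.0496), and these rose in all 8 silica runs. In the main fit, without the block, none of them passed. Under other settings without the block Il1r2, Ceacam4 and Ebp passed, and Lpo and LOC362677 did not.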

How the results depend on the processing

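The count of genes called in silica, 2826, was 1449 with median scaling (787 higher and 662 lower, 1318 of them shared, with the median of all genes at 0.031), 1623 at an adjusted p under 0.01, 98 with a change of at least 1.5-fold and 520 in the 4 runs with air rats. Leaving out 1 rat at a time gave 2373, without silica rat 8 at 8 weeks, to 2858. The air count, 3, was 0 with median scaling, with the 2 groups fitted alone and at an adjusted p under 0.01, 7 with cyclic loess, 8 in the authors' values and 26 with run as a block. It was 0 to 3 with 1 rat left out, 0 without air rat 1 or 2 at 4 weeks or air rat 1 at 8 weeks, and 1 without air rat 3 at 4 weeks or air rat 4 at 8 weeks. The count for the difference, 0, was 1 with no background correction, 3 with normexp without negative controls, 4 in the authors' values, 1 with the 24 arrays fitted alone, 1 when they were also normalized alone and 5 with run as a block. It was 0 to 4 with 1 rat left out: 1 without air rat 2 at 4 weeks (Ebp) or silica rat 5 at 8 weeks (Il1r2), 2 without air rat 1 at 8 weeks and 4 without silica rat 2 at 8 weeks. With the replicate number as a block the counts were 2985, 3 and 0, no named gene lost its call, and the pairing is by number alone. Ccnd1, −0.15 in silica, was 0.021 with median scaling. Of the 100 named genes called in silica, 77 kept their call under every setting other than median scaling and the 4 runs, and 31 under all 45. The causes were not tested. The number of arrays, 8 a group in silica and 4 in air, limits the air change and the difference most.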
